A study of Mus musculus with 5 samples.

Results

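The 10 genes described here encode the 5 NF-kB subunits (Rela, Rel, Relb, Nfkb1, Nfkb2) and 5 IkB proteins (Nfkbia, Nfkbib, Nfkbie, Nfkbid, Nfkbiz). They were chosen by gene symbol, as family members, out of 38130 gene entries in each library, and all 10 were among the 11296 genes with enough expression to be compared. Messenger RNA was measured by RNA sequencing in CD4+YFP+ regulatory T (Treg) cells sorted from C57BL/6 mice, in which a Cre recombinase and yellow fluorescent protein driven by Foxp3 mark the Treg lineage. There were 2 libraries at 6 weeks of age from mice with the genotype malt1fl/C472A (KI), which have a floxed copy of Malt1 beside a copy bearing the C472A change and in which, per the labels, the protease activity of Malt1 is inhibited in Treg cells. They are set against 1 library of wild type reporter mice (WT) at 6 weeks. There was 1 library at 21 days from malt1fl/fl mice (KO), in which Malt1 is deleted in Treg cells, set against 1 WT library at 21 days. All groups carry the Foxp3-driven Cre. KI mice differ from WT by the floxed copy as well as by the substitution, and the labels do not say whether libraries came from separate or pooled animals, so a p-value here reflects nothing more than how far these samples vary, and that variation may be technical.

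NF-kB transcription factors are dimers of the subunits. Rela, Rel and Relb carry a transactivation domain, whereas Nfkb1 and Nfkb2 encode precursors (p105 and p100) that are processed to p50 and p52 and that hold IkB-like ankyrin repeats until then. Classical IkB proteins keep dimers in the cytoplasm and are degraded after phosphorylation by the IKK kinase. In T cells the antigen receptor reaches IKK with the help of the paracaspase Malt1, which acts both as a scaffold and as a protease. Rel and the atypical nuclear IkB protein encoded by Nfkbid are known for their part in Foxp3 induction in mice.

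The libraries fell into sets of unequal depth. The deposited FPKM (fragments per kilobase of transcript scaled to the mapped fragments) carry bounds but no counts, and from these bounds the depth was estimated at 24.9 and 24.4 M (mega) fragments in the KI libraries against 6.84 M for WT at 6 weeks, and at 7.71 M for KO against 28.6 M for WT at 21 days. Both age-matched comparisons therefore set a deep library against a shallow one, with KI as the deeper side in one and KO as the shallower side in the other. Malt1 itself had a scaled FPKM of 55.9 and 37.8 in KI and 15.2 in WT at 6 weeks, and 17.6 in KO and 27.0 in WT at 21 days. The gene-level value therefore did not mark the KO library as lacking Malt1 transcripts, and the exon removed by Cre cannot be seen in it. Foxp3 was present in all libraries, at 70.1 and 73.6 in KI and 39.5 in WT at 6 weeks, and at 30.5 in KO and 70.7 in WT at 21 days. Of 6 Treg markers, 3 were past 2-fold lower in KO than in WT at 21 days, where 8.14% of genes tested were. These were Foxp3, Ikzf2 (15.3 in KO, 68.0 in WT at 21 days) and Ctla4 (118 in KO, 396 in WT at 21 days). In WT at 6 weeks Ikzf2 stood at 36.3 and Ctla4 at 148. Against that library Ikzf2 alone was past 2-fold lower in KO. Il2ra was lower by less (76.7 in KO, 93.4 in WT at 21 days). Cd4 (213 in KO, 165 in WT at 21 days) and Cd3e (224 in KO, 181 in WT at 21 days) were higher in KO. The part of these markers in the values of the family was not tested. The WT library at 6 weeks held the highest level of 6 of 6 myeloid, 4 of 5 B cell, 4 of 5 plasmacytoid dendritic cell and 4 of 4 erythroid marker genes. For NK cell markers this held for 2 of 5, and for CD8 T cell markers for 1 of 2. No share over all genes stands beside these counts, and some of the markers were low there, such as Cd14 (0.781). Summed over the plasmacytoid dendritic cell markers, scaled FPKM was 20.2 and 28.0 in KI, 101 in WT at 6 weeks, 38.7 in KO and 43.0 in WT at 21 days, with Siglech at 0 in KI replicate 1. The myeloid markers summed to 23.5 and 4.27 in KI, 87.4 in WT at 6 weeks, 13.7 in KO and 6.57 in WT at 21 days. The B cell markers summed to 3.89 and 2.96 in KI, 21.7 in WT at 6 weeks, 6.38 in KO and 16.3 in WT at 21 days. Erythroid markers summed to 25.9 and 3.48 in KI, 49.7 in WT at 6 weeks, 2.38 in KO and 6.51 in WT at 21 days, and NK cell markers to 35.4 and 38.0 in KI, 38.6 in WT at 6 weeks, 91.8 in KO and 22.9 in WT at 21 days. Nkg7 (73.8) and Gzma (14.9) made up most of the NK cell sum in KO. Ncr1 was 0.194 in KO and 0.0867 in WT at 21 days, Klrb1c 1.82 and 0.65, and Klrd1 1.17 and 1.25. CD8 T cell markers summed to 6.09 and 5.79 in KI, 13.2 in WT at 6 weeks, 10.1 in KO and 8.95 in WT at 21 days. The part of other cells that such markers may reflect, and of depth, in the values of the family was not tested. In bulk samples, fewer cells that express a gene and less RNA per cell cannot be told apart.

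Apart from Rel in WT at 6 weeks and in KO, every member exceeded 9.23 in all libraries. That is the median scaled FPKM over all tested genes and all libraries, pooled. The members lay between 4.64 (Rel in KO) and 604 (Nfkbia in KI replicate 1). Scaled FPKM are FPKM divided by a factor per library that sets the median ratio of 9874 commonly expressed genes to 1, and ranges in brackets after a level are the authors' bounds on the same scale, which take in counting and assignment error of that library but no variation between samples. Differences are given on the scale log2(scaled FPKM + 1), on which 2-fold is a difference of 1.

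**Figure D1:**
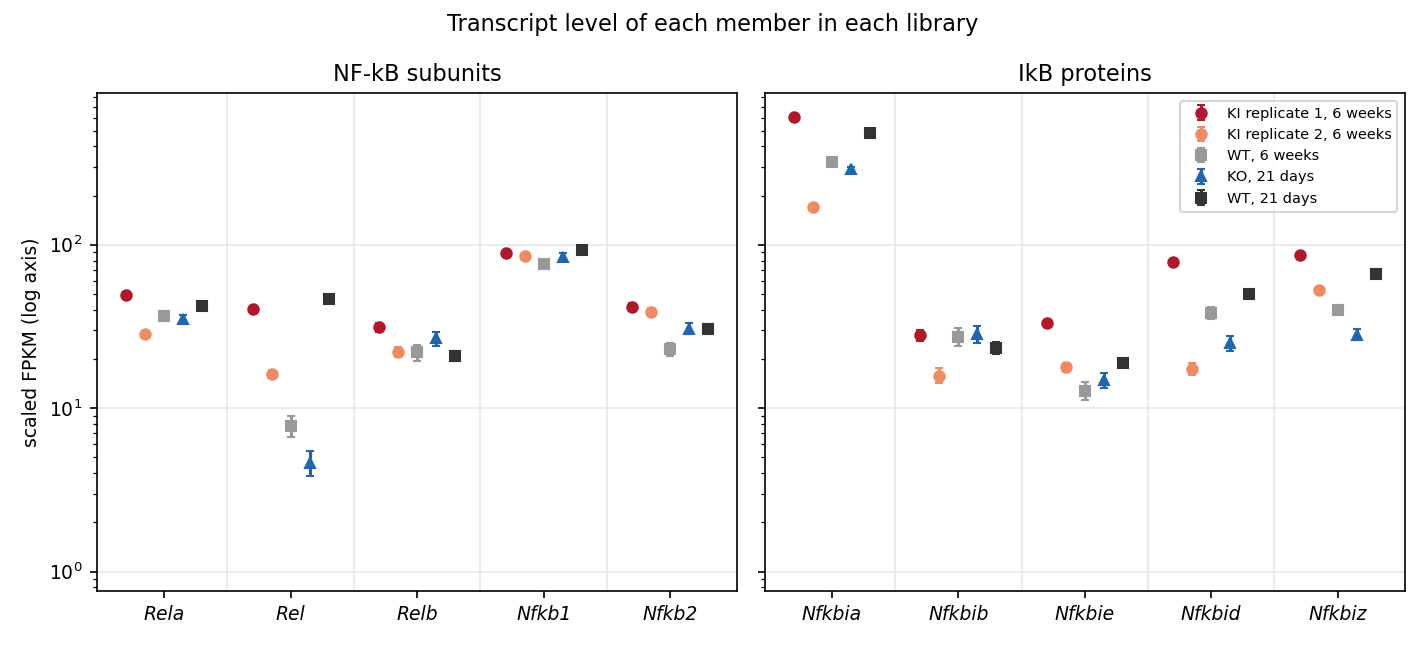
Scaled FPKM (log axis) of the 5 subunits and the 5 IkB proteins in the 2 KI libraries, WT at 6 weeks, KO and WT at 21 days, with bars for the deposited bounds. Nfkb1 is nearly level across the libraries, Nfkb2 is highest in both KI libraries, and Rel spans 4.64 in KO to 46.5 in WT at 21 days.

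Nfkb1 was the steadiest member and the most abundant subunit transcript. Nfkb1 (ENSMUSG00000028163, GRCm38 chromosome 3, 135584655 to 135691547, minus strand) had a scaled FPKM of 88.5 and 85.8 in KI and 76.7 in WT at 6 weeks, and 84.7 in KO and 92.5 in WT at 21 days. The highest value was 1.21 times the lowest. The KI mean was 87.2 ± 1.90 (SD, n = 2), and the log2 difference of KI from WT at 6 weeks, 0.18 (SE 0.218), did not pass limma's test (adjusted p = 0.752).

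Nfkb2 lay higher in both KI libraries than in the other 3, but the difference did not pass the test. Nfkb2 (ENSMUSG00000025225, chromosome 19, 46304737 to 46312090, plus strand) encodes the p100 precursor of the non-canonical pathway. Scaled FPKM stood at 41.9 (39.7 to 44.1) and 38.8 (36.8 to 40.9) in KI and 23.0 (21.0 to 24.98) in WT at 6 weeks, and 30.7 (28.4 to 33.0) in KO and 30.4 (28.7 to 32.1) in WT at 21 days. The bounds of the KI libraries overlap each other and those of no other library, while those of KO and WT at 21 days overlap. KI was 1.82 and 1.69 times WT at 6 weeks, and 1.38 and 1.28 times WT at 21 days. The log2 difference from WT at 6 weeks was 0.79 (SE 0.218, limma, unadjusted p = 0.0300, adjusted p = 0.454), and that from both WT libraries was 0.59 (SE 0.231, limma, adjusted p = 0.930). A gene whose 2 KI values both exceed both WT values and KO is common here, at 10.8% of genes tested, and Nfkb2 was 1 of 10 members to do so. Of the genes tested, 16.2% had both KI values above both WT values, and among members Relb and Nfkb2 did. The strand setting of the counting is not given in the sources used here, and Nfkb2 overlaps Psd and AC114539.1 in GENCODE, so reads of these genes may not be separated. The same limit holds for Nfkb1, which overlaps Gm43430. The gene model behind the Nfkb2 value also lacks 417 bases at the start and 295 at the end of Nfkb2 in GENCODE M21.

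The ratio of Nfkb2 to Nfkb1 within a library, which does not depend on scaling between libraries, separated KI in the same way. It was 0.473 (0.444 to 0.504, 2 standard errors from the deposited bounds) and 0.452 (0.424 to 0.483) in KI and 0.299 (0.270 to 0.332) in WT at 6 weeks. It was 0.363 (0.331 to 0.397) in KO and 0.329 (0.308 to 0.351) in WT at 21 days. The intervals of the KI libraries did not overlap those of the other 3, whereas those of KO overlapped both WT intervals. Nfkb1 was nearly level, so this ratio largely follows Nfkb2 itself. Other ratios did not separate KI. Relb to Rela was 0.632 and 0.78 in KI, 0.599 in WT at 6 weeks, 0.764 in KO and 0.5 in WT at 21 days. Summed Nfkbid and Nfkbiz to the summed subunits was 0.653 and 0.366 in KI and 0.472 in WT at 6 weeks. It was 0.293 in KO and 0.499 in WT at 21 days. As a share of the summed subunits, Nfkb2 made up 16.6% and 20.3% in KI, 13.8% in WT at 6 weeks, 16.9% in KO and 13.1% in WT at 21 days, so the share of KI replicate 1 was below that of KO.

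Rel varied most of all members, and the order of its levels was that of estimated depth except that KO lay below WT at 6 weeks. Rel (ENSMUSG00000020275, chromosome 11, 23741514 to 23770970, minus strand) encodes c-Rel, a subunit that lymphocytes induce on stimulation. Its level, in scaled FPKM, was 40.5 (39.0 to 42.1) and 16.2 (15.3 to 17.1) in KI and 7.79 (6.66 to 8.92) in WT at 6 weeks, and 4.64 (3.83 to 5.45) in KO and 46.5 (45.0 to 48.0) in WT at 21 days. The shallow libraries, WT at 6 weeks and KO, were the lowest, and no bounds overlapped. The bounds correspond to about 190 effective fragments in WT at 6 weeks and 131 in KO, against 2801 and 1295 in KI and 3680 in WT at 21 days, so counting error within a library is small beside these gaps. KI was 5.20 and 2.08 times WT at 6 weeks, but 0.872 and 0.349 times WT at 21 days. The log2 difference from WT at 6 weeks was 1.61 (SE 0.642, limma, adjusted p = 0.488), and against WT at 21 days it was -0.83 (SE 0.632, limma, adjusted p = 1.0). The sign of the KI difference for Rel therefore depended on the WT library used. KO had 0.0998 times the level of WT at 21 days and 0.596 times that of WT at 6 weeks.

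The gene model behind the Rel value is short at its 3′ end. It stops 4667 bases before the end of Rel in GENCODE M21, whose longest coding transcript has a 3′ untranslated region of 5418 nt. Fragments from the far end of that region would not enter the deposited value, and whether that differs between libraries was not tested.

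Rel's share of the subunit pool varied more than that of any other subunit. Rel made up 16.1% and 8.48% of the summed subunit FPKM in KI and 4.69% in WT at 6 weeks, and 2.55% in KO and 20.0% in WT at 21 days. Nfkb1 was the largest share in all 5 libraries, at 35.2% and 44.8% in KI, 46.2% in WT at 6 weeks, 46.6% in KO and 39.8% in WT at 21 days. The ratio of Rel to Rela was 0.820 (0.777 to 0.866) and 0.571 (0.531 to 0.615) in KI and 0.213 (0.181 to 0.250) in WT at 6 weeks, and 0.132 (0.110 to 0.160) in KO and 1.11 (1.06 to 1.17) in WT at 21 days. Rel thus exceeded Rela per unit length in WT at 21 days and stayed below it in the other 4 libraries. All these shares and ratios are descriptions, with no test.

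**Figure D2:**
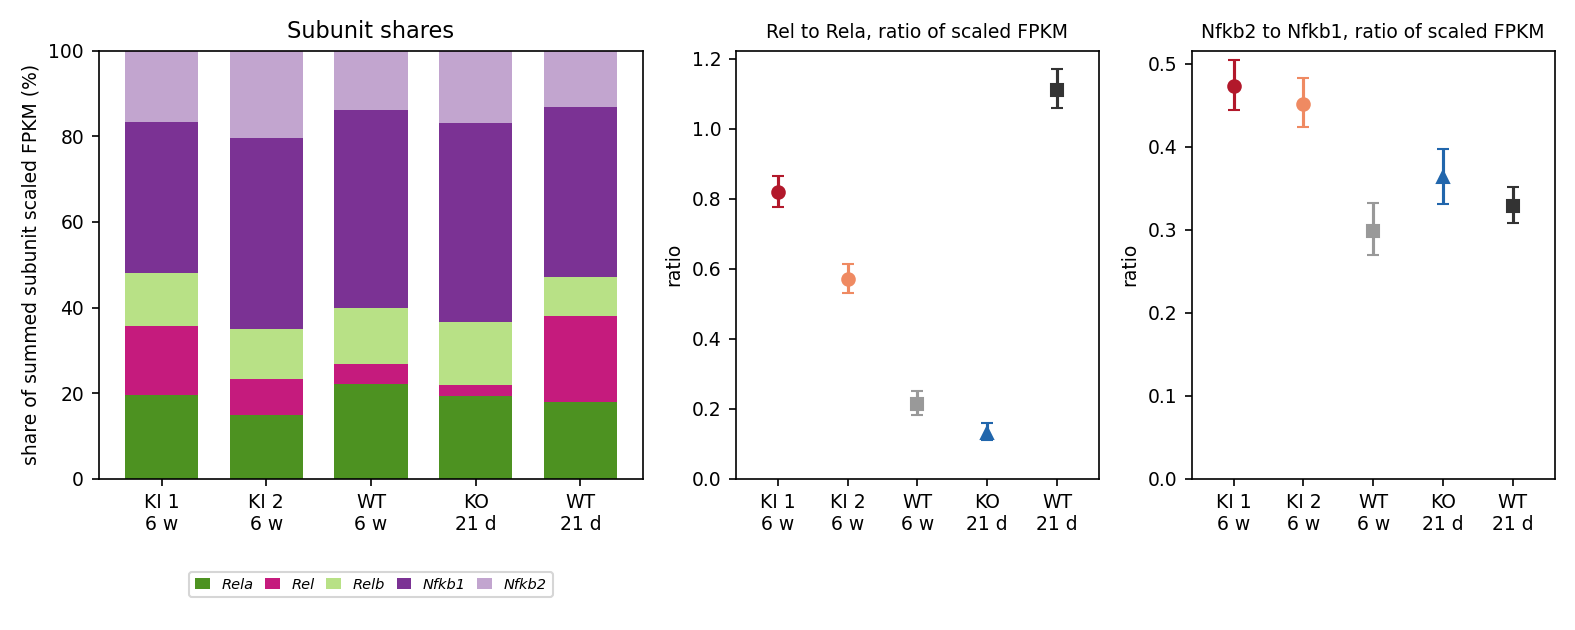
Left, share of each subunit in the summed scaled FPKM of the 5 subunits (percent) in each library. Middle and right, ratios of Rel to Rela and of Nfkb2 to Nfkb1 with intervals of 2 standard errors; Nfkb2 to Nfkb1 is 0.473 and 0.452 in KI and at most 0.363 elsewhere, and Rel to Rela runs between 0.132 in KO and 1.11 in WT at 21 days.

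Rela and Relb were nearer to level. Rela (ENSMUSG00000024927, chromosome 19, 5637483 to 5648130, plus strand) encodes p65, the main partner of p50 in the canonical pathway. Its scaled FPKM was 49.4 and 28.4 in KI and 36.6 in WT at 6 weeks, and 35.0 in KO and 41.9 in WT at 21 days, so the KI libraries were the highest and the lowest of all. Relb (ENSMUSG00000002983, chromosome 7, 19606217 to 19629438, minus strand) encodes the partner of p52 in the non-canonical pathway, and its protein is a known Malt1 substrate, which these RNA data do not measure. Scaled FPKM stood at 31.2 and 22.2 in KI and 22.0 in WT at 6 weeks, and 26.7 in KO and 21.0 in WT at 21 days. The bounds of KI replicate 2 overlapped those of both WT libraries. Neither gene passed limma's test for KI against WT at 6 weeks, with log2 differences of 0.03 for Rela (SE 0.422, adjusted p = 0.984) and 0.25 for Relb (SE 0.313, adjusted p = 0.762).

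Nfkbia, a classical IkB gene, was the most abundant of all members, and the KI libraries were its highest and its lowest. Nfkbia (ENSMUSG00000021025, chromosome 12, 55489411 to 55492647, minus strand) encodes IkB-alpha, a target of NF-kB that restores inhibition after activation. Its level, in scaled FPKM, was 604 (596 to 613) and 170 (166 to 174) in KI and 320 (310 to 329) in WT at 6 weeks, and 290 (282 to 299) in KO and 479 (473 to 486) in WT at 21 days. The KI mean was 387 ± 307 (SD, n = 2), and the log2 difference from WT at 6 weeks was 0.0032 (SE 0.910, limma, adjusted p = 1.0). The SE alone is nearly as large as a 2-fold difference. Relative to the subunits, Nfkbia stood at 2.40 and 0.887 times the summed subunits in KI, 1.93 in WT at 6 weeks, 1.60 in KO and 2.06 in WT at 21 days.

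Nfkbib (ENSMUSG00000030595, chromosome 7, 28758251 to 28767512, minus strand) encodes IkB-beta. Its scaled FPKM was 28.0 and 15.8 in KI and 27.4 in WT at 6 weeks, and 28.5 in KO and 23.5 in WT at 21 days, so KI replicate 2 stood below the rest. Nfkbie (ENSMUSG00000023947, chromosome 17, 45555716 to 45563169, plus strand) encodes IkB-epsilon. Scaled FPKM stood at 33.1 (31.5 to 34.7) and 17.8 (16.7 to 18.9) in KI and 12.8 (11.3 to 14.4) in WT at 6 weeks, and 14.8 (13.3 to 16.4) in KO and 19.0 (17.9 to 20.1) in WT at 21 days. KI was 2.58 and 1.39 times WT at 6 weeks for Nfkbie, but KI replicate 2 did not differ from WT at 21 days beyond the bounds. The log2 differences from WT at 6 weeks were 0.87 for Nfkbie (SE 0.466, limma, adjusted p = 0.550) and -0.36 for Nfkbib (SE 0.432, limma, adjusted p = 0.752). Nfkbib overlaps Sirt2 and Ccer2 in GENCODE, with the same limit on strand as for Nfkb2.

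Among the members, the atypical, nuclear IkB genes Nfkbid and Nfkbiz were both highest in KI replicate 1. Nfkbid (ENSMUSG00000036931, chromosome 7, 30421732 to 30428746, plus strand), which encodes IkB-NS, had a scaled FPKM of 78.2 (74.1 to 82.2) and 17.5 (16.0 to 18.9) in KI and 38.4 (35.0 to 41.8) in WT at 6 weeks, and 25.1 (22.4 to 27.7) in KO and 49.9 (47.3 to 52.6) in WT at 21 days. As for Nfkbia, the KI libraries were the highest and the lowest of all. Nfkbiz (ENSMUSG00000035356, chromosome 16, 55811375 to 55838899, minus strand) encodes IkB-zeta, which co-activates a subset of NF-kB targets. Its level, in scaled FPKM, was 86.2 (82.2 to 90.2) and 52.6 (50.03 to 55.1) in KI and 40.0 (37.1 to 42.8) in WT at 6 weeks, and 28.2 (26.0 to 30.3) in KO and 66.0 (62.9 to 69.1) in WT at 21 days. KO was the lowest library for Nfkbiz, and no bounds overlapped. The log2 differences of KI from WT at 6 weeks were -0.04 for Nfkbid (SE 1.01, limma, adjusted p = 0.994) and 0.74 for Nfkbiz (SE 0.392, limma, adjusted p = 0.548).

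The RefSeq promoters of several members hold matches to the kB consensus, the sequence that NF-kB dimers bind, and they are shown because auto-regulation of the family is known to act through such sites. The consensus searched is 10 bases long and reads as a run of G, a purine, any base, an A or T, a pair of pyrimidines and a pair of C, and it was searched on both strands from 250 bases before to 50 bases after each start (RefSeq, GRCm38.p6). Windows were found for 7 of the 10 genes, not for Relb, Nfkb1 and Nfkbiz. Of 11 windows of these 7 genes, 7 held a match, and so did 4.505% of 32851 windows of all genes. By gene, Rel, Nfkb2, Nfkbia, Nfkbie and Nfkbid held at least 1 match, and Rela and Nfkbib held none, against 5.136% of 27025 genes. A match is a description of these letters and no evidence of binding in these cells. Matches stand in capitals below, on the strand of the gene, positions count back from -1 at the base before the start, and overlapping matches on either strand form 1 run.
Rel, chr11:23770982-23771081, minus strand, positions -112 to -13: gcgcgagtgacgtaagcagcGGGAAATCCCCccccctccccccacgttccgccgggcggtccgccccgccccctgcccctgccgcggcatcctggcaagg
Nfkb2, chr19:46304689-46304718, plus strand, positions -48 to -19: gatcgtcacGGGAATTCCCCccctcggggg
Nfkbia, chr12:55492648-55492747, minus strand, positions -100 to -1: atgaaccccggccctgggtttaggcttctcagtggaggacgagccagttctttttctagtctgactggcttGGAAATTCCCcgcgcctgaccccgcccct
Nfkbie, chr17:45555574-45555673, plus strand, positions -126 to -27: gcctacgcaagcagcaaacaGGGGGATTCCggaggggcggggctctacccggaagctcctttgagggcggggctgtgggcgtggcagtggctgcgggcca
Nfkbid, second RefSeq start, chr7:30422160-30422259, plus strand, positions -246 to -147: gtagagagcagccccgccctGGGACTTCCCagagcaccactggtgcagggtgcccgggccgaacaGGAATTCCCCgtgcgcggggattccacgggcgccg
The Rel run and the Nfkb2 run each hold 3 overlapping matches, the core being GGGAAATCCC in Rel and the palindrome GGGAATTCCC in Nfkb2. Nfkb2 has further matches, GGGGCTTTCC at -11 to -2 of this start, and others at its other RefSeq starts. In GENCODE M21 the 100 bases before this Nfkb2 start overlap an exon of an Nfkb2 transcript and an exon of AC114539.1, and the other 4 windows overlap no exon.

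The members also differ in the AU-rich pentamer ATTTA, which is known in short-lived transcripts, in the 3′ untranslated region of the longest coding GENCODE transcript. Rel held 12 copies, Nfkb1 and Nfkbiz 4 each, Nfkbia 2, and Nfkb2 and Nfkbid 1 each. Rela, Relb, Nfkbib and Nfkbie held none. Over 21860 genes the median was 1 copy in 738 nt, and 17.95% of genes held at least 5. The length of the Rel region, 5418 nt, is part of its count, at 2.21 copies per kb against 5.71 in Nfkb1.

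Across the family, no member passed limma's test of KI against WT at 6 weeks (0 of 10). The test called 1 of the 11296 genes, or 0.00885%. At an unadjusted p under 0.05 there were 1211 genes, among members Nfkb2 alone. By size, 3.01% of genes were past 2-fold higher and 2.80% past 2-fold lower in both KI libraries on the log2(scaled FPKM + 1) scale, and no member was. Rel came closest, at 2.24 and 0.97. Its plain ratios, 5.20 and 2.08, both exceed 2, and with a pseudocount of 0.1 in place of 1 Rel was past 2-fold in both KI libraries, so the count of 0 rests on the pseudocount. The median log2 difference over the 10 members was 0.88 in KI replicate 1 and 0.09 in KI replicate 2, where that over all genes tested was near 0 in each (-0.001 and -0.010). In the 2 replicates Nfkbid differed from WT in opposite directions (1.01 and -1.09).

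Against WT at 21 days, which matches KI in depth but not in age, no member was past 2-fold in both KI libraries, where 0.398% of genes were higher and 0.788% lower. The log2 differences were -0.19 and -1.46 for Rel, 0.45 and 0.34 for Nfkb2 and -0.06 and -0.11 for Nfkb1. Nfkb2, and by a small margin Relb (0.55 and 0.08), were the members higher in both KI libraries than in each WT library, as 16.2% of genes tested were. These comparisons share the KI libraries and are not independent.

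**Figure D3:**
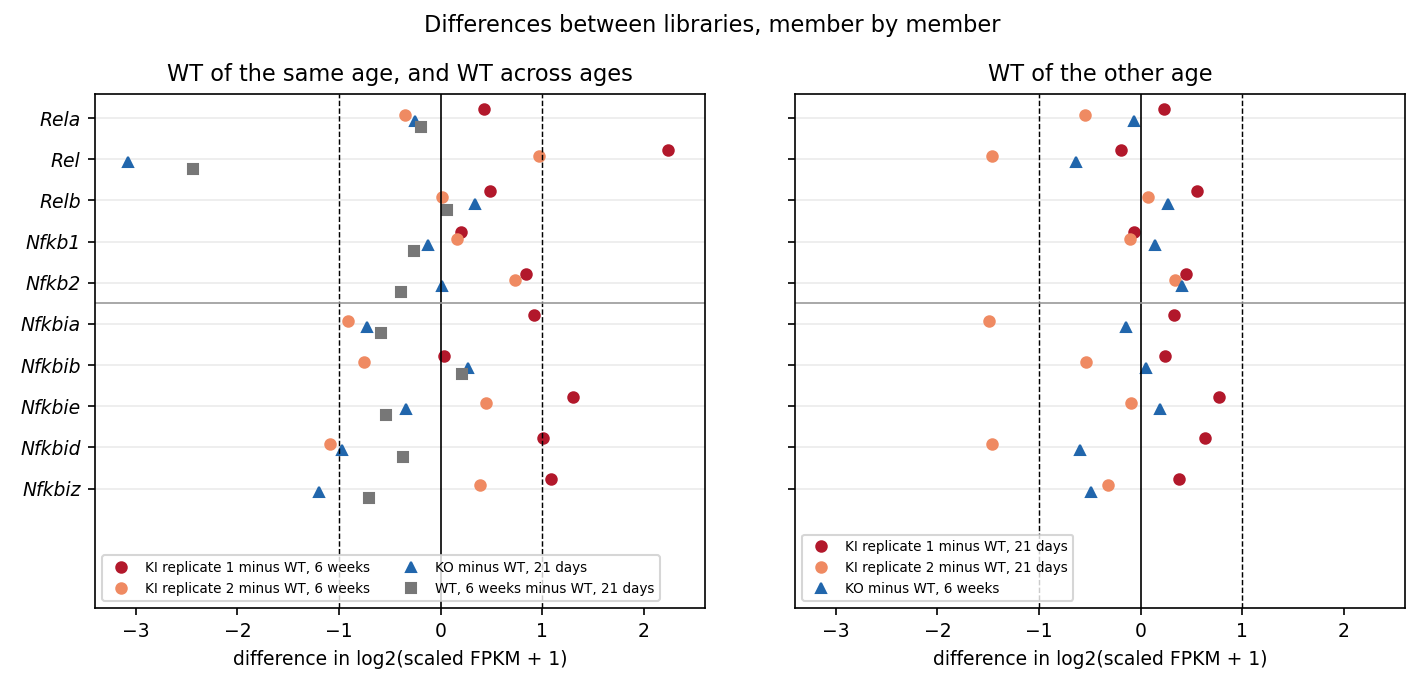
Differences in log2(scaled FPKM + 1) for each member, with dashed lines at 2-fold. On the left, each KI replicate minus WT at 6 weeks, KO minus WT at 21 days, and WT at 6 weeks minus WT at 21 days; on the right, the mutants minus WT of the other age. Rel is at 2.24 and 0.97 for KI and -3.07 for KO on the left, and at -0.19, -1.46 and -0.64 on the right.

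In KO, 2 members were lower than in WT at 21 days by more than 2-fold, Rel (log2 difference -3.07) and Nfkbiz (-1.20), and Nfkbid was just short of it (-0.97). Past 2-fold were 8.14% of genes lower and 6.13% higher, and the count of 2 among 10 members was not tested against this background. The members' median was -0.30, beside 0.02 over all genes. With 1 library per group there is no replicate check. In a limma fit of the 4 group means, whose spread comes from the KI pair, Rel had an SE of 0.746 (adjusted p = 0.464) and Nfkbiz one of 0.458 (adjusted p = 0.494), and no gene of the 11296 was called, with 1171 at an unadjusted p under 0.05. The other members differed by less, from -0.72 for Nfkbia to 0.34 for Relb.

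The KO library matches WT at 6 weeks in depth. Set against that library, no member was past 2-fold, where 3.30% of genes were higher and 2.29% lower. The log2 difference was -0.64 for Rel, -0.49 for Nfkbiz, -0.60 for Nfkbid, -0.14 for Nfkbia and 0.40 for Nfkb2, and the members' median was -0.003.

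Rel also separated the WT libraries. WT at 6 weeks had less Rel than WT at 21 days by 2.43 on the log2 scale, at 0.168 times its level, and Rel was the 1 member past 2-fold, where 5.18% of genes were lower and 3.38% higher. Nfkbiz (-0.71), Nfkbia (-0.58), Nfkbie (-0.53), Nfkb2 (-0.39) and Nfkbid (-0.37) were lower by less. The members' median was -0.38, beside 0.01 over all genes. Age, depth and library cannot be told apart here, and for Rel this difference between WT libraries exceeds both KI differences in size.

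When KO and KI were pooled as Malt1 mutants against both WT libraries, no member and none of the 11296 genes was called by limma (0%), with 297 genes at an unadjusted p under 0.05. Nfkb2 had the largest log2 difference among members, 0.46 (SE 0.240, adjusted p = 1.0), higher in 3 of 3 mutant libraries than in either WT library, although the bounds of KO and WT at 21 days overlap. Relb was likewise higher in all 3, and so were 7.34% of the genes tested, against 2 of 10 members. With the depth set as a covariate, the Nfkb2 difference was 0.40 (SE 0.148, limma, unadjusted p = 0.0377, adjusted p = 0.821).

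Several members differed widely within the KI pair. KI replicate 1 exceeded KI replicate 2 past 2-fold for Rel (2.50 times), Nfkbia (3.56 times) and Nfkbid (4.48 times), where 4.14% of genes were higher and 2.44% lower. No member was past 2-fold lower. Nfkb1 (1.03 times) and Nfkb2 (1.08 times) were the closest in the 2 libraries. Of 10 immediate early genes, which cells induce within minutes of stimulation or handling, 9 were past 2-fold higher in KI replicate 1, with a median log2 difference of 1.43. Among them, Fosb had a scaled FPKM of 190 and 13.3 in KI, 87.9 in WT at 6 weeks, 51.5 in KO and 144 in WT at 21 days. Summed over the 10 genes, scaled FPKM was 2900 and 970 in KI and 2220 in WT at 6 weeks, and 1720 in KO and 2840 in WT at 21 days. The 5 libraries had the same order in this sum as in Nfkbia, Nfkbid and Rela, with KI replicate 1 highest and KI replicate 2 lowest. The part of cell handling in these members was not tested.

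**Figure D4:**
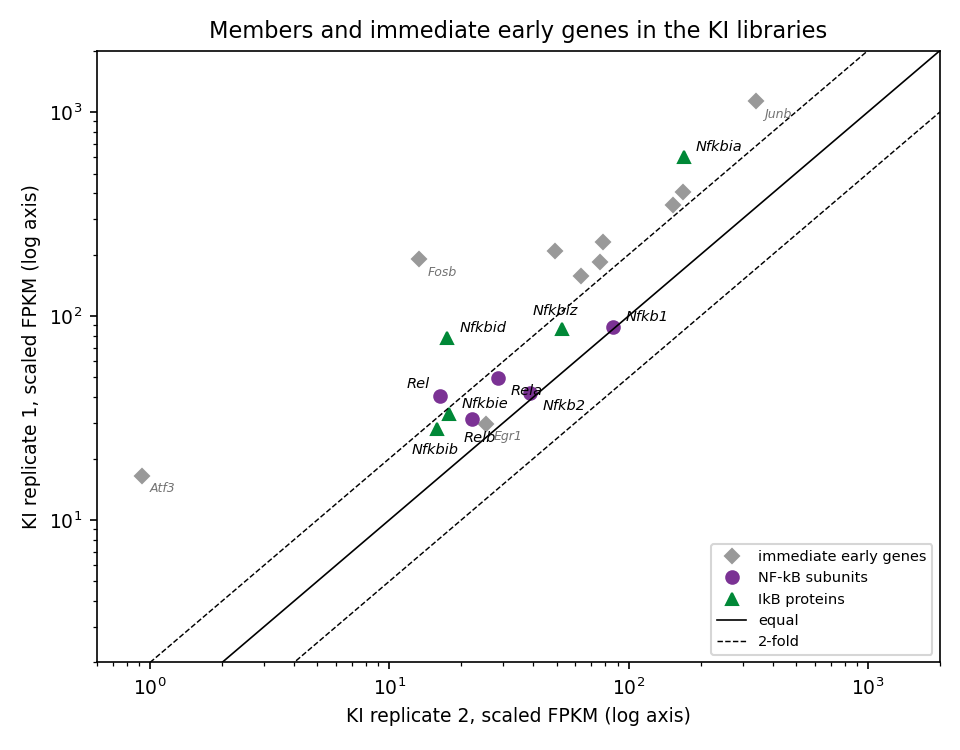
Scaled FPKM in KI replicate 1 against KI replicate 2 (both log axes) for the 5 subunits, the 5 IkB proteins and 10 immediate early genes, with lines at equality and at 2-fold. Nfkb1 and Nfkb2 lie at equality, and Nfkbid, Nfkbia and Rel lie past 2-fold with 9 of the 10 immediate early genes.

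The genes whose pattern over the 5 libraries was most like that of the most variable members were found by the root mean square difference between profiles of log2 values, each centred on its mean, among 11295 other genes. For Rel these were Tgif1 (0.133), the lincRNA entry CT572998.1 (0.158) and Dusp4 (0.195). Dusp4, a MAP kinase phosphatase, had a scaled FPKM of 88.6 and 39.6 in KI, 14.1 in WT at 6 weeks, 8.28 in KO and 94.6 in WT at 21 days. For Nfkbid they were Gadd45b (0.114), Nfkbia (0.190) and 1190002H23Rik (0.202). Gadd45b, a stress-induced gene, had a scaled FPKM of 108 and 25.6 in KI, 48.9 in WT at 6 weeks, 41.0 in KO and 72.8 in WT at 21 days.

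Upstream of the family, 1 of 8 tested genes on the list of Malt1, its partners and genes upstream was past 2-fold higher in both KI libraries. This was Malt1 itself, with log2 differences from WT at 6 weeks of 1.81 and 1.26. None on that list was past 2-fold in KO against WT at 21 days. Of 14 genes of the IKK complex and its activators, 1 differed from WT at 6 weeks by over 2-fold in both KI libraries. Of all genes tested, 3.01% were higher and 2.80% lower by this rule. The IKK gene was Tab3, an adaptor of the kinase Tak1, with a scaled FPKM of 5.78 and 5.34 in KI, 1.93 in WT at 6 weeks, 1.95 in KO and 5.08 in WT at 21 days. Tab3 was also the 1 gene of this list past 2-fold lower in KO than in WT at 21 days, where 8.14% of all genes were. It was low in both shallow libraries, as Rel was. The median of the IKK list was 0.08 in KI and -0.02 in KO. None of 9 genes of the non-canonical pathway and TNF family receptors was past 2-fold in either comparison, and their medians were 0.42 in KI and -0.39 in KO. Limma called none of the genes on these lists, or on those of targets, negative regulators and immediate early genes below, in KI.

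Of 19 tested target genes outside the family, 1 was past 2-fold in both KI libraries, where 3.01% of all genes were higher and 2.80% lower. This target was Irf4, a transcription factor that Treg effector cells need, at 31.1 and 39.5 in KI, 11.3 in WT at 6 weeks, 14.3 in KO and 21.4 in WT at 21 days (limma, adjusted p = 0.377). In KO, 2 targets were past 2-fold lower than in WT at 21 days, Tnfaip3 (190 in KO, 795 in WT at 21 days) and Cd83 (12.6 in KO, 41.5 in WT at 21 days), and 1 was higher, Ier3 (8.05 in KO, 1.20 in WT at 21 days). Of all genes tested, 8.14% were lower and 6.13% higher, and the target counts were not tested against these shares. The list medians were 0.38 in KI and -0.36 in KO, beside -0.004 and 0.016 over all genes. Against WT at 6 weeks, no target was past 2-fold lower in KO, and Ier3 was past 2-fold higher, where 2.29% of all genes were lower and 3.30% higher.

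Among 13 negative regulators of the pathway, 3 were past 2-fold lower in KO than in WT at 21 days, where 8.14% of all genes tested were. Of these 3, Tnfaip3 is on the target list as well. Tnfaip3 encodes the deubiquitinase A20, Rc3h1 the RNA-binding protein Roquin-1 (3.81 in KO, 11.5 in WT at 21 days) and Zc3h12a the RNase Regnase-1 (20.3 in KO, 45.3 in WT at 21 days). Their proteins are known Malt1 substrates, as are those of Cyld (log2 difference -0.75) and N4bp1 (0.42) on the same list, which were not past 2-fold. None of the 13 was past 2-fold in KO against WT at 6 weeks, and none was past 2-fold in both KI libraries. The list medians were 0.53 in KI and -0.59 in KO, each against WT of the same age. Tnfaip3 had 864 and 228 in KI and 218 in WT at 6 weeks, so KI replicate 1 alone was high. Zc3h12a had 64.8 and 14.3 in KI and 20.8 in WT at 6 weeks, with KI replicate 2 below WT. Of the 10 immediate early genes, 4 were past 2-fold lower in KO than in WT at 21 days (Nr4a1, Atf3, Fosb and Dusp1), where 8.14% of all genes were. Against WT at 6 weeks, 1 of the 10 was past 2-fold lower in KO, Atf3 (log2 difference -1.27), where 2.29% of all genes were. None of the 10 was past 2-fold in both KI libraries.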

How the data were processed

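The authors used CASAVA, HISAT2 2.1.0, Cufflinks 2.2.1 and, as genome, GRCm38, per the submitters' processing notes. The deposited values are gene-level FPKM with lower and upper bounds, per the file headers. What annotation release, read type and strand setting were used is not given in the sources used here. FPKM hold no counts, so effective fragments and depth were estimated from the bounds, taken as 2 standard errors from the value, and are approximate.

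Each library was scaled by dividing its FPKM by a median-of-ratios factor (0.868 and 1.01 in KI, 1.15 in WT at 6 weeks, 1.15 in KO and 0.876 in WT at 21 days), without which the median gene would differ by -0.26 (KI minus WT at 6 weeks) and 0.35 (KO minus WT at 21 days) on the log2 scale. A gene was tested if its scaled FPKM averaged 1 or more across libraries, on log2(scaled FPKM + 1), by limma 3.58.1 in R 4.3.3 (trend on, two-sided), with p-values adjusted by Benjamini-Hochberg over all genes tested and a threshold of 0.05. In the KI fit the pair of KI libraries gives the 1 residual degree of freedom, and the fit takes the lone WT library to vary as these do. Comparisons of 1 library with 1 were counted by size, at 2-fold.

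All 10 members are named, with the pathway list genes past 2-fold in KI or KO, up to 4 a list and comparison by size. Markers of cell types are given as lists. The members and lists were chosen with earlier results of these data known. Of 117 list genes, 115 were matched by symbol and 2 by gene ID. GENCODE M21 gave gene models and RefSeq the promoters.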

Additional observations from a re-analysis of the deposited data

Results flagged for a closer look

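For 4 members both KI libraries lay above WT at 6 weeks while KO lay below WT at 21 days, a pattern that 26.5% of the 11296 genes tested share. The difference between the KI effect and the KO effect, in a limma fit of the 4 group means added after seeing the data, was 4.68 for Rel on the log2 scale (SE 0.987, unadjusted p = 0.0140, adjusted p = 0.251), from 2.24 and 0.97 in KI and -3.07 in KO. It was 1.94 for Nfkbiz (SE 0.606, limma, adjusted p = 0.292), from 1.09 and 0.39 in KI and -1.20 in KO. It was 1.21 for Nfkbie (SE 0.717, limma, adjusted p = 0.443), from 1.30 and 0.44 in KI and -0.34 in KO. It was 0.31 for Nfkb1 (SE 0.342, limma, adjusted p = 0.658), from 0.20 and 0.16 in KI and -0.13 in KO. For Nfkb1 and Nfkbie the opposite directions were lost under other settings: the KO difference was 0.26 for Nfkb1 and 0.03 for Nfkbie with FPKM as deposited, and 0.14 and 0.20 with WT at 6 weeks as control. With WT at 21 days as control, the KI difference was -0.83 for Rel, so its opposite directions were lost too. That of Nfkbiz was then 0.03, from 0.38 and -0.32 in the KI libraries. No difference between the KI and the KO effect passed the threshold for these 4 genes, and the SE rests on the KI pair. In both age-matched comparisons the deeper library was the higher one for these 4 genes, so genotype, age and depth cannot be told apart.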

How the results depend on the processing

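No paired analysis was possible because the groups compared share fewer than 2 replicate numbers. The count of genes called by limma in KI was 1, with 0 under upper-quartile scaling, 0 with no filter on low values, 0 with WT at 21 days as control, 50 with a pseudocount of 0.1, 25 at a mean of at least 5 and 15 among protein-coding genes. For mutants against WT it was 0, and 0 to 11 without each library in turn, with 11 without WT at 6 weeks, 4 without WT at 21 days and 1 without KO. Members past 2-fold in both KI libraries numbered 0, but 1 with a pseudocount of 0.1 (Rel), and 1 to 4 without one KI replicate. Members past 2-fold in KO numbered 2, but 1 with FPKM as deposited and 0 with WT at 6 weeks as control.

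Some KI differences changed sign. With FPKM as deposited they were -0.25 for Rela, -0.03 for Relb, -0.11 for Nfkb1 and -0.29 for Nfkbia. With WT at 21 days as control they were -0.16 for Rela, -0.83 for Rel, -0.08 for Nfkb1 and -0.58 for Nfkbia. With both WT libraries they were -0.06 for Rela and -0.29 for Nfkbia, and Nfkbia was -0.0049 under upper-quartile scaling. Without one KI replicate the ranges were -0.35 to 0.42 for Rela, -0.91 to 0.92 for Nfkbia, -0.76 to 0.03 for Nfkbib and -1.09 to 1.01 for Nfkbid. For mutants against WT without each library in turn they were -0.30 to 0.09 for Rela (0.0019 without WT at 21 days), -1.58 to 0.86 for Rel (0.39 without KO), -0.10 to 0.17 for Nfkb1, -0.82 to 0.10 for Nfkbia, -0.26 to 0.15 for Nfkbib, -1.03 to 0.02 for Nfkbid and -0.41 to 0.38 for Nfkbiz (0.33 without WT at 21 days). With FPKM as deposited, which shifts the median gene by 0.35, the KO difference was 0.12 for Rela, 0.26 for Nfkb1 and 0.03 for Nfkbie, and that of WT at 6 weeks from WT at 21 days was 0.19 for Rela, 0.12 for Nfkb1 and 0.01 for Nfkbid. With WT at 6 weeks as control, the KO difference was 0.14 for Nfkb1 and 0.20 for Nfkbie. The cause of the other changes was not tested. Nfkb2, Nfkbie and Nfkbiz kept a positive KI difference, and Nfkb2, Relb and Nfkbie a positive mutant difference, in every alternative run. Of all members and libraries, Rel in KO had the fewest effective fragments, at 131, and the part of depth in its values was not tested.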
